A study of Mus musculus with 6 samples.

Results

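Shisal2a, B3gnt8, Chad, Gk, Esrrg, Lcn2, Mmp7 and Mapk15 are 8 genes of 21829 measured in the epididymal white fat of mice, a visceral depot next to the testis. They were chosen by their FPKM values, which are higher on average in the libraries labelled ZFP251 knockout (KO) than in those labelled wild type (WT), and each was then set beside Foxj1 and Epcam, genes of ciliated and general epithelium. The study sequenced mRNA from 3 libraries labelled ZFP251 KO and 3 labelled WT, called KO 1 to KO 3 and WT 1 to WT 3 here after the numbers of the labels. All came from male C57BL/6J mice of 20 weeks on a normal diet, with WT animals named as littermates, to learn the function of the zinc finger protein ZFP251 in this depot. The labels give neither the knockout allele nor whether each library is a separate mouse. The p-values therefore measure library-to-library spread, some of which may be technical.

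Multiciliated cells carry many motile cilia on their surface. They switch on the transcription factor Foxj1, which drives the genes of the ciliary axoneme, while Epcam is a membrane adhesion protein of most simple epithelia and is not a product of fat cells. Ducts that carry sperm from the testis lie next to this fat pad and are lined by epithelium, part of it ciliated. A gene that is high in such epithelium therefore has a level in whole fat that can move with the amount of epithelial RNA in a library, whatever the genotype. In bulk tissue, fewer cells of a type and less RNA per cell cannot be told apart.

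Zfp251, the targeted gene, was higher in the libraries labelled KO than in those labelled WT. It stood at 6.48, 5.86 and 6.48 FPKM (fragments scaled by transcript length and sequencing depth) in KO 1 to KO 3, against 3.73, 3.56 and 2.95 FPKM in WT 1 to WT 3. The labels do not give the allele, so these gene-level values cannot check the genotype labels. Directions below are those of the libraries labelled KO. FPKM summed over all genes to between 426966 and 439354 in the libraries labelled KO and to between 468499 and 637902 in those labelled WT, the highest sum being that of WT 3. No gene of 12539 tested passed the adjusted threshold between the groups (limma, Benjamini-Hochberg; 1700 had an unadjusted p under 0.05). Without WT 1, 482 passed, 469 of them higher in KO. All 10 mature adipocyte markers were lower in the libraries labelled KO, with summed levels of 37895 to 46344 FPKM against 52677 to 94561 FPKM in WT. Their median log2 difference was -0.53, against -0.053 over all tested genes.

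The epithelial markers split the WT libraries. Foxj1 had 44.2, 43.2 and 20.0 FPKM in KO 1 to KO 3, against 13.9 FPKM in WT 1 and 0.034 FPKM in WT 2, and WT 3 was listed at 0. Epcam had 30.8, 34.3 and 16.4 FPKM in KO 1 to KO 3, against 14.2, 0.199 and 0.191 FPKM in WT 1 to WT 3. In both genes WT 1 lay next to KO 3, and KO 3 was at 45.3% of KO 1 in Foxj1 and at 53.4% in Epcam. The 23 multiciliated genes in the table summed to 162, 166 and 85.1 FPKM in KO 1 to KO 3 and to 72.8, 22.6 and 24.5 FPKM in WT 1 to WT 3, and all 20 that were tested were higher in KO. The 20 general epithelial genes summed to 294, 307 and 155 FPKM in KO 1 to KO 3 and to 130, 18.8 and 10.2 FPKM in WT 1 to WT 3, and all 16 that were tested were higher in KO. The median log2 difference was 1.46 in the tested multiciliated genes and 2.21 in the general epithelial ones, against -0.053 over all tested genes. The 10 genes of secretory epididymal epithelium, Lcn5, Lcn8, Lcn9, Lcn10, Lcn12, Adam7, Crisp1, Cst11, Defb21 and Gpx5, summed to at most 0.79 FPKM in any library, and 0 of them passed the filter on low values.

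The question for each of the 8 genes is whether its level follows Foxj1 and Epcam from library to library or follows the genotype label. The difference between the groups chose the genes, so it is given as a description with no test. The order of libraries that carry the same label was not a criterion of that choice. Earlier results of these data were known when the choice was made, so tests of this order may not be fully independent of it. The order was tested by fitting log2(FPKM + 1) of every gene on the group together with a marker score. This score is the mean log2(FPKM + 1) of Foxj1 and Epcam. With the group in the fit, the slope on the score rests on differences within KO and within WT. The score was 5.24, 5.3 and 4.26 in KO 1 to KO 3 and 3.91, 0.16 and 0.13 in WT 1 to WT 3. Score and label move together, the score being higher in every library labelled KO than in any WT library, and the part of epithelial RNA in the differences between the labels was not tested. A slope of 1 means that log2(FPKM + 1) of the gene moves as much as the score does. The added 1 FPKM flattens the slope of low genes, so the size of a slope depends on the level of the gene. Mapk15 kept a nearly fixed ratio to Foxj1 in KO 1 to KO 3 and WT 1, yet its slope was 0.64. A slope near 0 means little movement with the score on this scale, which a low level alone can bring. Over all genes 200 of 12539 passed with a positive slope, a background of 1.60% of tested genes, and 0 passed with a negative one. In the epithelial lists 4 of 20 tested multiciliated genes passed, Foxj1 among them, and 11 of 16 general epithelial genes, Epcam among them. Foxj1 and Epcam make up the score, so their own calls, also counted in the 200, were largely fixed in advance. Of the 8 genes, 4 passed: Mmp7, Mapk15, Gk and Lcn2. At an unadjusted p under 0.05 there were 6, with Chad and Esrrg, where 759 of all tested genes (6.05%) had a positive slope at that level. All 8 had passed the filter of a mean of at least 1 FPKM, and Shisal2a, Chad and Esrrg did so through the libraries labelled KO, since their means in WT were below 1 FPKM.

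**Figure D1:**
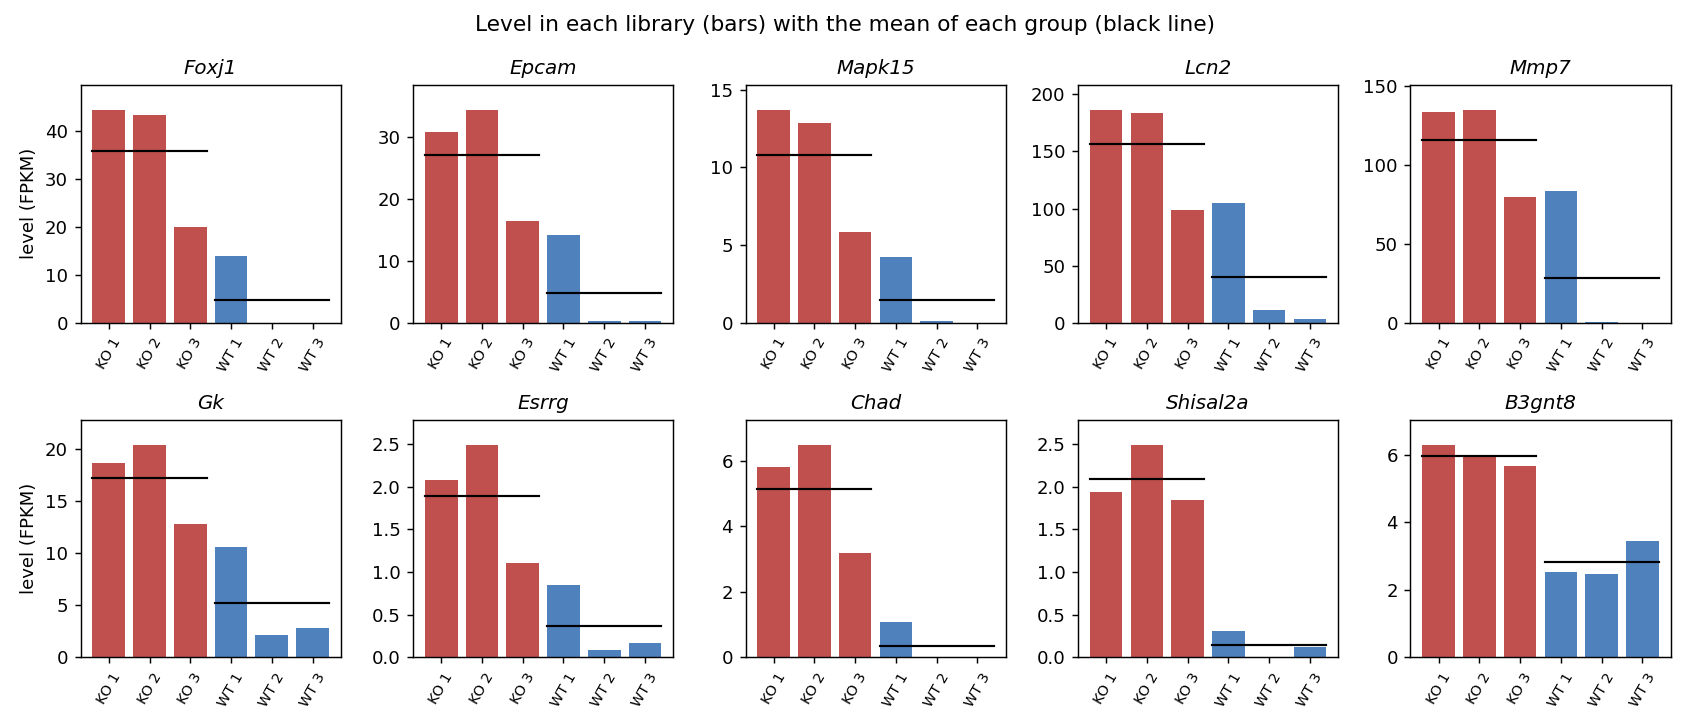
Level of Foxj1, Epcam and the 8 genes in FPKM (vertical axes from 0, 1 scale per panel) in each of the 6 libraries, red for the libraries labelled KO and blue for those labelled WT, with the mean of each group as a black line. Mapk15, Lcn2, Mmp7, Gk, Esrrg and Chad share with the markers a WT 1 bar well above WT 2 and WT 3, and B3gnt8 does not, with 2.54, 2.47 and 3.43 FPKM in WT 1 to WT 3.

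Mapk15 (ENSMUSG00000063704) encodes an atypical mitogen-activated protein kinase that is needed to form cilia. Its level was 13.7, 12.9 and 5.84 FPKM in KO 1 to KO 3, against 4.25 FPKM in WT 1 and 0.104 FPKM in WT 2, and WT 3 was listed at 0. The order of libraries was that of Foxj1 at every step. Mapk15 stood at 30.9%, 29.8% and 29.2% of the Foxj1 FPKM in KO 1 to KO 3 and at 30.6% in WT 1, so WT 1 lay inside the range of the libraries labelled KO. Against Epcam it was at 29.9% in WT 1, below the 35.5% to 44.4% of the libraries labelled KO. Its slope on the score was 0.64 ± 0.06 (SE; limma adjusted p = 0.00721). The log2 difference between KO and WT was 2.64 ± 0.66 (SE, 3 libraries each), and 0.36 ± 0.28 with the score in the fit. The gene lies on chromosome 15 (75993769 to 75999154, plus strand, GRCm38), 0.852 Mb from Zfp251.

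Mmp7 (ENSMUSG00000018623) encodes matrilysin, a secreted matrix protease made by glandular and ductal epithelium. It had 133, 134 and 79.6 FPKM in KO 1 to KO 3, against 83.5 FPKM in WT 1 and 0.688 FPKM in WT 2, and WT 3 was listed at 0. The groups overlapped, because WT 1 was above KO 3. The slope was 1.54 ± 0.11 (SE; limma adjusted p = 0.00258), the steepest of the 8 genes. On the log2 scale KO minus WT was 4.44 ± 1.56 (SE, 3 libraries each), and with the score in the fit it was -1.0 ± 0.50. Mmp7 was at 301%, 311% and 398% of the Foxj1 FPKM in KO 1 to KO 3 and at 601% in WT 1. The gene lies on chromosome 9 (7692090 to 7699585, plus strand, GRCm38), with an antisense RNA, AV064505, annotated over it.

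Lcn2 (ENSMUSG00000026822) encodes lipocalin 2, a secreted protein that binds bacterial siderophores and is made by inflamed epithelium, by neutrophils and by fat cells. It had 186, 184 and 98.5 FPKM in KO 1 to KO 3, against 105, 11.2 and 3.54 FPKM in WT 1 to WT 3. Here too WT 1 was above KO 3, so the groups overlapped. The slope was 1.01 ± 0.13 (SE; limma adjusted p = 0.0212), and the log2 difference between KO and WT was 3.06 ± 1.06 (SE, 3 libraries each) without the score and -0.51 ± 0.58 with it. Lcn2 and Mmp7 were the closest pair among the 8 genes: with each profile written as percent of its highest library, their root mean square distance over the 6 libraries was 4.25 percentage points, against 33.9 points for the most distant pair, B3gnt8 and Chad. The 11 neutrophil markers, 5 of which passed the filter on low values, summed to 10.3 to 20.9 FPKM in the libraries labelled KO and 36.5 to 55.3 FPKM in WT. The 10 macrophage markers summed to 991 to 1339 FPKM in KO and 1122 to 1590 FPKM in WT. Which cells the Lcn2 RNA came from was not tested. Lcn2 lies on chromosome 2 (32384633 to 32388252, minus strand, GRCm38).

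Gk (ENSMUSG00000025059) encodes glycerol kinase, which returns glycerol to triglyceride synthesis and is normally low in white fat cells. It had 18.7, 20.4 and 12.8 FPKM in KO 1 to KO 3, against 10.6, 2.2 and 2.86 FPKM in WT 1 to WT 3. The groups did not overlap, and WT 1 reached 82.9% of KO 3. The slope was 0.46 ± 0.05 (SE; limma adjusted p = 0.0094). KO exceeded WT on the log2 scale by 1.78 ± 0.48 (SE, 3 libraries each), and 0.14 ± 0.21 with the score in the fit. Unlike Foxj1 and Epcam, Gk was still measured at 12.7% and 16.6% of its KO mean in WT 2 and WT 3. Gk lies on the X chromosome (85701937 to 85776819, minus strand, GRCm38), where a processed pseudogene and an antisense RNA overlap it.

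Esrrg (ENSMUSG00000026610) encodes the oestrogen-related receptor gamma, an orphan nuclear receptor that drives oxidative metabolism genes. It had 2.08, 2.48 and 1.1 FPKM in KO 1 to KO 3, against 0.844, 0.092 and 0.164 FPKM in WT 1 to WT 3. Its libraries stood in the same order as those of Epcam from the highest down to WT 1. Esrrg was at 6.76%, 7.23% and 6.71% of the Epcam FPKM in KO 1 to KO 3 and at 5.93% in WT 1. The slope was 0.22 ± 0.07 (SE), with a limma adjusted p of 0.41 that missed the threshold (unadjusted p = 0.021). A slope on log2(FPKM + 1) is flattened at levels this low. The log2 difference between KO and WT was 1.09 ± 0.29 (SE, 3 libraries each), and 0.32 ± 0.31 with the score in the fit. Esrrg lies on chromosome 1 (187608791 to 188214885, plus strand, GRCm38).

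Chad (ENSMUSG00000039084) encodes chondroadherin, a leucine-rich repeat protein of cartilage matrix. It had 5.81, 6.48 and 3.17 FPKM in KO 1 to KO 3, against 1.09 FPKM in WT 1, and both WT 2 and WT 3 were listed at 0. Among the libraries labelled KO it kept a nearly fixed ratio to Epcam, at 18.9%, 18.9% and 19.3% of the Epcam FPKM in KO 1 to KO 3. In WT 1 the ratio was 7.64%, which is 0.405 times the lowest KO value. Chad thus followed the markers in which libraries hold it, and its WT 1 level was lower per Epcam than that of any library labelled KO. The slope was 0.31 ± 0.07 (SE), and its limma adjusted p of 0.132 missed the threshold (unadjusted p = 0.00352). With a pseudocount of 0.1 FPKM in place of 1 the slope was 0.58 and passed (limma adjusted p = 0.00555). The pseudocount itself places WT 2 and WT 3, listed at 0, on the log2 scale. This call therefore cannot decide whether Chad follows the markers. On the log2 scale KO minus WT was 2.22 ± 0.36 (SE, 3 libraries each), and 1.11 ± 0.30 with the score in the fit. Chad lies on chromosome 11 (94565047 to 94569127, plus strand, GRCm38) over Acsf2 on the other strand, which had 12.3 to 15.6 FPKM in KO and 9.53 to 17.0 FPKM in WT, 12.8 and 9.53 FPKM in the WT libraries where Chad was listed at 0. Whether the authors counted by strand is not given in the sources used here.

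Shisal2a (ENSMUSG00000059816) encodes a small membrane protein of the Shisa-like group. It had 1.94, 2.49 and 1.84 FPKM in KO 1 to KO 3, against 0.309 FPKM in WT 1 and 0.125 FPKM in WT 3, and WT 2 was listed at 0. All libraries labelled KO were at least 5.96 times the highest WT library, the widest gap of the 8 genes. Within KO, KO 3 was at 95.2% of KO 1, whereas Foxj1 was at 45.3% and Epcam at 53.4%. Shisal2a was at 6.29% to 11.2% of the Epcam FPKM in the libraries labelled KO and at 2.17% in WT 1. The slope was 0.09 ± 0.06 (SE; limma adjusted p = 0.963), and it is flattened at levels this low, as in Esrrg. KO exceeded WT on the log2 scale by 1.43 ± 0.19 (SE, 3 libraries each) without the score and 1.13 ± 0.27 with it. At these levels WT 1 is above WT 2 and WT 3 by less than 0.5 FPKM, and after quantile normalization WT 1 was 0.91 times WT 3. Shisal2a lies on chromosome 4 (108367777 to 108383349, minus strand, GRCm38).

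B3gnt8 (ENSMUSG00000059479) encodes an N-acetylglucosaminyltransferase that starts polylactosamine chains on branched N-glycans. It had 6.28, 5.95 and 5.65 FPKM in KO 1 to KO 3, against 2.54, 2.47 and 3.43 FPKM in WT 1 to WT 3. WT 1 lay between the other WT libraries, and the lowest library labelled KO was 1.65 times the highest WT library. The slope was -0.03 ± 0.05 (SE; limma adjusted p = 0.963), and no movement with the score was detectable at this replication. Within KO the libraries stood in the order of Foxj1, with KO 3 at 90.0% of KO 1, where Foxj1 was at 45.3%. The log2 difference between KO and WT was 0.88 ± 0.14 (SE, 3 libraries each), and 0.98 ± 0.24 with the score in the fit. B3gnt8 had the smallest ratio of group means of the 8 genes, 2.12, with 5.96 ± 0.316 FPKM in KO and 2.81 ± 0.537 FPKM in WT (SD, n = 3 each). The gene lies on chromosome 7 (25626654 to 25635100, plus strand, GRCm38) and overlaps Bckdha on the other strand, which had 93.9 to 101 FPKM in KO and 108 to 179 FPKM in WT.

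**Figure D2:**
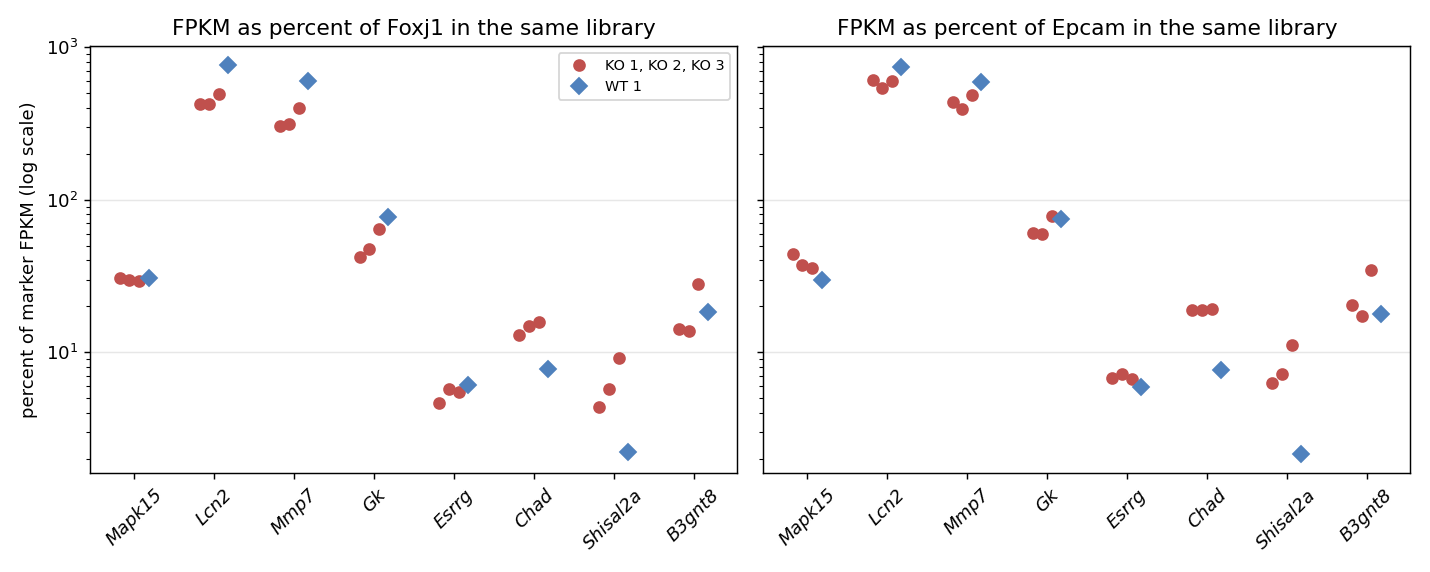
FPKM of each of the 8 genes as percent of the Foxj1 FPKM (left) and of the Epcam FPKM (right) in the same library, on a log axis, for KO 1 to KO 3 (red circles, left to right) and WT 1 (blue diamond); WT 2 and WT 3 hold too little of either marker for a ratio. WT 1 lies within the KO points for Mapk15 against Foxj1 (below them against Epcam), for Gk against Epcam (above them against Foxj1) and for B3gnt8 against both markers, above them for Lcn2 and Mmp7, and below them for Chad and Shisal2a.

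Mmp7, Mapk15, Gk and Lcn2 hold their calls through WT 1. Without WT 1, 0 genes of 12539 passed the slope test (limma; 768 had an unadjusted p under 0.05, either direction), and the slopes of Mmp7, Mapk15, Gk and Lcn2 were 0.74, 1.04, 0.56 and 0.92, positive in all 4 and now resting mainly on KO 3 against KO 1 and KO 2. Lcn2 also missed the threshold without any 1 library labelled KO, with limma adjusted p-values of 0.058, 0.0599 and 0.0741. The KO minus WT difference left with the score in the fit turned sign without WT 1 in Chad (-1.09), Gk (-0.33), Esrrg (-1.71), Mapk15 (-1.58) and Mmp7 (2.88), and kept its sign in Shisal2a (0.70), B3gnt8 (0.42) and Lcn2 (-0.05). Several of these sizes moved with the pseudocount. With 0.1 FPKM in place of 1, KO minus WT on the log2 scale was 3.37 in Shisal2a, 4.46 in Chad, 2.38 in Esrrg and 4.51 in Mapk15. In the same setting Shisal2a had a difference of 2.19 with the score in the fit and a slope of 0.23 (limma adjusted p = 0.739). The slope of Lcn2 was then 0.66 and that of Esrrg 0.34 (limma adjusted p = 0.014 for Lcn2 and 0.146 for Esrrg), and the differences with the score were 0.30 in Gk, 0.58 in Esrrg and -0.24 in Lcn2.

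**Figure D3:**
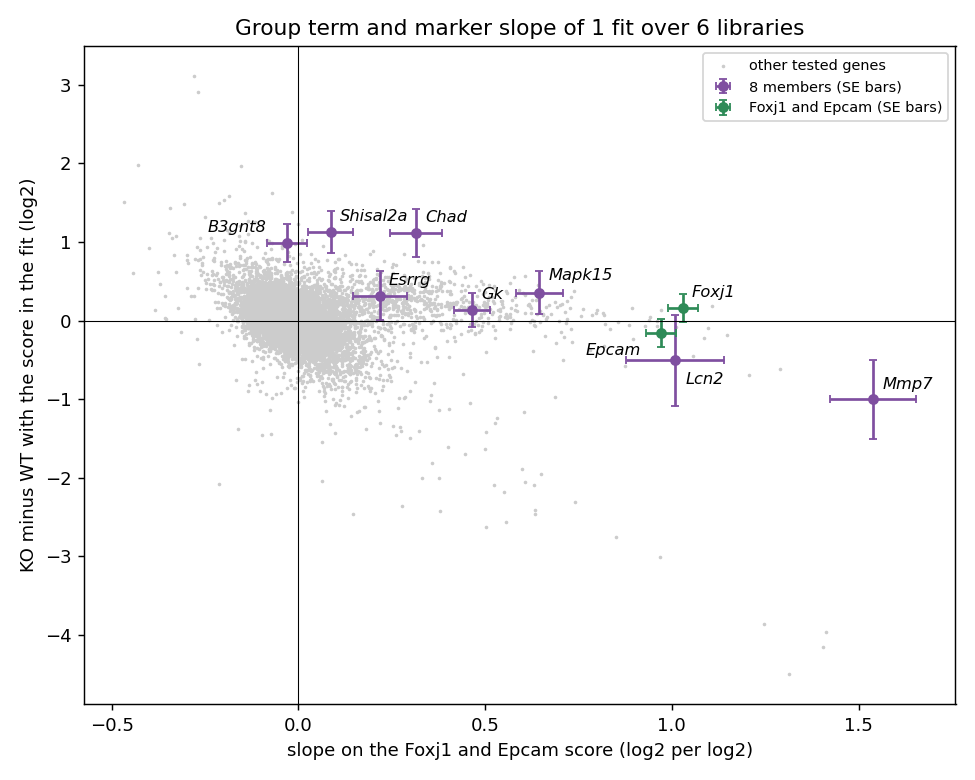
Slope on the Foxj1 and Epcam score (horizontal axis, log2 per log2) against the KO minus WT difference left with the score in the fit (vertical axis, log2) for the 12539 tested genes (grey), the 8 genes (purple) and Foxj1 and Epcam (green), with standard errors as bars. B3gnt8 and Shisal2a lie near slope 0 at 0.98 and 1.13 on the vertical axis, Gk and Mapk15 near 0 on the vertical axis at slopes of 0.46 and 0.64, and Chad has both terms, 0.31 and 1.11.

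The order of the WT libraries was also described by a fixed rule. WT 1 was called high when it was at least 3 times both WT 2 and WT 3, and WT was called flat when its highest library was under 1.5 times its lowest. Of 12539 tested genes, 1263 (10.1%) were higher in every library labelled KO than in every WT library, and 6 of the 8 genes were among them, which their choice made likely. In the 1263 genes WT 1 was high in 315 (24.9%), WT was flat in 534 (42.3%) and the other 414 (32.8%) lay between. Gk, Esrrg, Chad and Mapk15 were in the first class, B3gnt8 in the second and Shisal2a between, with WT 1 at 2.47 times WT 3. Mmp7 and Lcn2, which passed the slope test, got no class because their groups overlapped, and Esrrg and Chad were in the first class without passing it. Among the 550 of these genes with a ratio of group means of at least 2, WT 1 was high in 57.3% and flat WT values were found in 18 genes (3.27%). All 315 genes with WT 1 high met this cut, because low WT 2 and WT 3 values by themselves raise the ratio of means. The shares among the 550 therefore depend on the cut and are no separate result. B3gnt8 was the 13th of the 18 flat genes by ratio of means. The first and second were Shisa2, a Shisa family protein, with 6.17, 8.46 and 4.58 FPKM in KO 1 to KO 3 against 2.36, 1.79 and 2.45 FPKM in WT 1 to WT 3, and Kcnq1, a potassium channel subunit, with 4.56, 3.4 and 3.79 FPKM against 1.38, 1.46 and 1.2 FPKM.

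The genes most like each of the 8 were found by the same distance, in percentage points over 6 libraries, as a description. For Mapk15 they were Ccdc40, an assembly factor of the ciliary axoneme, at 0.93 points, Fam47e at 1.19 and the connexin Gjb1 at 1.61, and Foxj1 itself was at 1.83. For Esrrg they were Ppil6 at 0.62, Iqcg at 2.2 and Acsbg1, an acyl-CoA synthetase, at 2.65, with Epcam at 4.99. For Lcn2 they were Tmem30b at 2.28, the desmosomal plakophilin Pkp3 at 2.39 and the aldolase Aldoc at 3.22, and Pkp3 was also the closest to Mmp7, at 4.82, before Rragd at 5.02 and ccdc198 at 5.27. For Gk they were Ikzf4, Stk36 and Faah at 3.46, 4.12 and 4.49, and for Chad Prr18 and Bex2 at 4.36 and 4.52. Shisal2a had no gene as close: Tmem213, the thioesterase Acot1 and Gchfr were at 8.78, 9.75 and 10.3 points, Epcam at 16.8 and Zfp251 at 36.4. The median tested gene was 56.7 points from Shisal2a, and Epcam ranked 133 among all tested genes in nearness to it. Epcam ranked 178 for Chad, 181 for Mapk15 and 196 for Gk, and 66, 88 and 102 for Esrrg, Mmp7 and Lcn2. In points Epcam was nearer to each of these, at 4.99 to 10.4. For B3gnt8 they were the synaptotagmin Syt2 at 4.17, the deubiquitinase Usp11 at 8.16 and Lrrc56 at 8.86, with Zfp251 at 11.1 and Epcam at 32.5. B3gnt8 was thus the 1 gene of the 8 closer to Zfp251 than to Epcam.

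Relatives and partners of the 8 genes mostly did not pass the slope test, which 1.60% of all tested genes passed with a positive slope. At that share a list this short mostly has 0 calls, so 0 calls is no result about a family. Among the relatives named below, Mapk4, Mgat3 and Aqp9 had their libraries in the order of Mapk15 without passing the test. Of 7 other tested genes in the lipocalin list, 2 passed the slope test, a lipocalin-type prostaglandin synthase and a receptor that takes up lipocalin 2. The synthase Ptgds had 39.1, 35.8 and 18.3 FPKM in KO 1 to KO 3, against 21.3, 1.63 and 2.44 FPKM in WT 1 to WT 3, with a slope of 0.78 ± 0.06 (SE; limma adjusted p = 0.00258). The receptor Lrp2, megalin, had 14.5, 15.7 and 6.49 FPKM in KO 1 to KO 3, against 6.25, 0.573 and 0.224 FPKM in WT 1 to WT 3, with a slope of 0.66 ± 0.07 (SE; limma adjusted p = 0.0092). In both genes WT 1 stood beside KO 3, as it did in Lcn2.

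Partners of Gk, Esrrg and Mmp7 gave 0 calls on the slope, near the share of 1.60% over all tested genes. Among 10 other tested glycerol handling genes, 1 was higher in KO and the median log2 difference was -0.19, where the median over all tested genes was -0.053. Pck1, which makes the glycerol backbone from pyruvate, had 923, 947 and 870 FPKM in KO 1 to KO 3, against 786, 1586 and 818 FPKM in WT 1 to WT 3. The glycerol channel Aqp7, through which fat cells release glycerol, had 63.5 to 85.4 FPKM in KO and 69.8 to 88.5 FPKM in WT. Neither had the low WT 2 and WT 3 values of Gk. Aqp9, a channel for glycerol and water and the 1 higher gene, had 8.36, 8.14 and 4.61 FPKM in KO 1 to KO 3, against 3.62, 2.82 and 1.25 FPKM in WT 1 to WT 3, with a slope of 0.21 ± 0.10 (SE; limma adjusted p = 0.768). Among 7 other oestrogen-related receptor and coactivator genes, 4 were higher in KO and the median was 0.01, and the corepressor Nrip1 had 29.5 to 32.0 FPKM in KO and 22.9 to 32.9 FPKM in WT. Of 14 other matrix metalloproteinases and their inhibitors, 3 were higher in KO and the median was -0.19, and the inhibitor Timp2 had 194 to 217 FPKM in KO and 178 to 250 FPKM in WT. The membrane-type protease Mmp15, the other family member with the smallest slope p besides Timp2, had 4.86 to 6.31 FPKM in KO and 2.35 to 5.81 FPKM in WT.

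The families of Mapk15, Chad, B3gnt8 and Shisal2a also had 0 other calls on the slope, again near the share of 1.60% over all tested genes. Mapk13, a p38 kinase, came nearest, with 2.41, 2.87 and 1.48 FPKM in KO 1 to KO 3, against 1.59, 0.204 and 0.252 FPKM in WT 1 to WT 3 (slope 0.30 ± 0.06, SE; limma adjusted p = 0.0901). Mapk4 had 1.95, 1.93 and 1.23 FPKM in KO 1 to KO 3, against 0.91, 0.528 and 0.2 FPKM in WT 1 to WT 3 (slope 0.15 ± 0.07, SE; limma adjusted p = 0.743). The ubiquitous kinase Mapk3 had 86.4 to 91.0 FPKM in KO and 84.5 to 89.5 FPKM in WT. Of 12 other tested kinases 7 were higher in KO, with a median of 0.01, where the median over all tested genes was -0.053. The medians of the families in this paragraph lie near that value, so their counts are no result about a family. Of 11 other small leucine-rich repeat proteins 7 were higher in KO (median 0.03), and Decorin, the collagen-binding Dcn, had 736 to 785 FPKM in KO and 722 to 1156 FPKM in WT. Of 13 other N-glycan branching genes 8 were higher in KO (median 0.10). Mgat4b, which adds a branch to N-glycans, had 57.5 to 70.8 FPKM in KO and 55.3 to 63.0 FPKM in WT, and Mgat3, which adds the bisecting residue, had 4.8, 4.73 and 3.16 FPKM in KO 1 to KO 3 against 2.27, 1.52 and 0.583 FPKM in WT 1 to WT 3. The 3 other tested Shisa genes were higher in KO (median 0.06), among them Shisa2 (above), and Shisa5 had 89.9 to 96.8 FPKM in KO and 77.5 to 98.5 FPKM in WT.

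Promoter windows from RefSeq (GRCm38.p6), from 250 bases before to 50 bases after a start site, were matched for 7 of the 8 genes, with 11 windows in all. Mapk15 had no window and was not searched, and Esrrg and Mmp7 had more than a single window. Shown are Mmp7 and Lcn2, the pair closest in profile, and B3gnt8 and Shisal2a, which did not pass the slope test. Capitals mark a TATA box (TATAAA) or an AP-1 site (TGACTCA), searched on both strands together with an RFX half-site (GTTGCC) and a forkhead site (TGTTTAC), after the levels were known.
Mmp7, chr9:7691840-7692139, plus strand: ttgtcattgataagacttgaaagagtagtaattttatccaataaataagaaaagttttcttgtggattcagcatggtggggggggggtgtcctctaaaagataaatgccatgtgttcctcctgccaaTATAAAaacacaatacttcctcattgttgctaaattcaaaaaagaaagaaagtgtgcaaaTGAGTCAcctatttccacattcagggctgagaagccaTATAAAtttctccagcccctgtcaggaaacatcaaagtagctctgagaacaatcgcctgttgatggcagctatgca
Lcn2, chr2:32387690-32387989, minus strand: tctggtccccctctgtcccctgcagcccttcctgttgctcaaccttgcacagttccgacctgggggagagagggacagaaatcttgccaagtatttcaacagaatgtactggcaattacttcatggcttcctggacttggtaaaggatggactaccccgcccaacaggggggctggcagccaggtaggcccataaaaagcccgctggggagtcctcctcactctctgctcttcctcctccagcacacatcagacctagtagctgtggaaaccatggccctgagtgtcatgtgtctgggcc
Shisal2a, chr4:108383606-108383905, minus strand: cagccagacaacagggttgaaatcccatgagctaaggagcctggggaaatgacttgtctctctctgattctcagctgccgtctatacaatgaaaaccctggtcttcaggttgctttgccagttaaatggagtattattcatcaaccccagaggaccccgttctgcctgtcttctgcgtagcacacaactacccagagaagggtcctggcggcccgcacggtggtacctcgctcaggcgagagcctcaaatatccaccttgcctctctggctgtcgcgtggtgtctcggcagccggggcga
B3gnt8, chr7:25627374-25627673, plus strand: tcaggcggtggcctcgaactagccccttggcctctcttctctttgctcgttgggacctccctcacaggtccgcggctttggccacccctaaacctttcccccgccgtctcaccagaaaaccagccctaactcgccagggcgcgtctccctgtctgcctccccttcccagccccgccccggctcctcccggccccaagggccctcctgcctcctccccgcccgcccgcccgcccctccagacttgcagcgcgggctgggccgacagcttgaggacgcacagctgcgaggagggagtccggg
The Mmp7 window shown held TATAAA at 2 places and an AP-1 site, while its other window, at a start site further on, held 0 of the motifs, and Chad and Esrrg had a window with TATAAA, the one of Esrrg with an AP-1 site as well. Of all 32851 windows, 13.6% held TATAAA and 5.2% TGACTCA. The RFX half-site, in 12.5% of all windows, and the forkhead site, in 3.65%, had 0 matches in the 11 windows, which do not include Mapk15. A match is a description of letters, and no match says only that these letters are not in the window.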

How the data were processed

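Per the labels' protocols, a stranded mRNA kit was used on TRIzol-extracted RNA. The submitters' processing notes name the build mm10 and the tools Cuffdiff 2.2.1, Cufflinks and STAR 2.5.4. Not given in the sources used here are the annotation, filters, depth scaling and strand setting. The deposited table has 1 column per library, read as FPKM values made by the authors; its header names no unit, so the unit was inferred from the tools and from values that are not whole. Its 21853 rows held 24 repeated symbols, and for each symbol only its highest row by mean entered.

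Genes averaging 1 FPKM or more over the 6 libraries, 12539 in number, were fitted as log2(FPKM + 1) in limma 3.58.1 (R 4.3.3) with a mean-variance trend, on group alone and on group plus the marker score. P-values were adjusted by Benjamini-Hochberg over all tested genes, with a threshold of 0.05. Fold changes on this scale understate low genes. Total depth is unknown; steps among low values put the libraries at 0.651 to 1.03 times the depth of WT 1, the step in WT 3 being shared by 11.9% of low genes. The 8 genes, the lists, the alternatives and the rules for named genes were chosen with earlier results of these data known. Named genes were the 8, Foxj1, Epcam, Zfp251, up to 3 relatives per list by slope p and mean level, and the 3 nearest profiles per gene (1 of those for Chad is not reported here); Shisa2 and Kcnq1 as leaders of the flat class, and the overlapping Acsf2 and Bckdha, were named after their values were seen. GENCODE vM21 (GRCm38, which mm10 is) gave the gene positions. Promoter sequences came from RefSeq.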

Additional observations from a re-analysis of the deposited data

How the results depend on the processing

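Alternatives were other pseudocounts, filters, scalings and marker scores, no mean-variance trend, each library left out, and a replicate block; the multiciliated score and the rescaled ratios of WT libraries were chosen after seeing the data. The KO minus WT difference of the 8 genes stayed positive in all settings that gave it, which their choice made likely. The number of genes called by the slope was 200, and 319 with a pseudocount of 0.1 FPKM, 86 when the filter was 5 FPKM, 403 with the multiciliated score and 0 to 1030 with a library left out (0 without WT 1; 1030 without WT 2, of which 567 positive). Between KO and WT 0 genes passed, except without WT 1, where 482 did (range 0 to 482), and 1700 had an unadjusted p under 0.05, 974 under the 5 FPKM filter and 866 to 2195 with a library left out.

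With the replicate block 39 genes passed the slope, and the slopes of Gk, Lcn2 and Mapk15 did not (limma adjusted p = 0.336, 0.104 and 0.225); same-numbered libraries deviated with r = 0.228, -0.2 and 0.22 across genes, so the numbers were not taken to pair them. Lcn2 also missed the threshold with no filter (limma adjusted p = 0.0614, range 0.000499 to 1 over its alternatives), and Lcn2 and Mmp7 with the multiciliated score (0.0736 and 0.0614). Signs turned with a library left out for the slope of B3gnt8 (-0.07 to 0.09; 0.09 without WT 1 and 0.02 without WT 3). With the score in the fit, the KO minus WT difference turned without WT 1 in Chad (-1.09, range -1.09 to 1.39), Gk (-0.33 to 0.2, and -0.03 with the multiciliated score), Esrrg (-1.71 to 0.57), Mmp7 (-1.5 to 2.88) and Mapk15 (-1.58 to 0.6). WT 1 over the higher of WT 2 and WT 3 turned for Shisal2a with quantile normalization (0.91). The cause of these changes was not tested. At mean levels below 5 FPKM Shisal2a, Esrrg, Chad and B3gnt8 have no value under the stricter filter. Shisal2a also has none with the filter at 1 FPKM after quantile normalization.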
